A study of Homo sapiens with 10 samples.

Results

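The INT guide, a modified guide RNA directed at an integrated Gaussia luciferase reporter, was compared with the dCas9-VP64 activator delivered alone (CasVP). The comparison covers 11574 features of 20246, namely those that carry a gene name and average 1 FPKM or more over the 10 libraries. FPKM is a number of fragments per kilobase of transcript, scaled for the size of the library. The exact scaling used here is not given. Of these features, 11570 are endogenous genes or joint features of several genes, and 4 are construct transcripts. A further 7727 named features lay below that level and were not tested.

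All cells were HEK293FT, an easily transfected human embryonic kidney line, and all carried lentivirally integrated Gaussia and Cypridina luciferase reporters. Wells of 125000 cells received 59 ng of dCas9-VP64 plasmid 1 day after plating, together with 679.4 ng of carrier and 2.25 uL of Lipofectamine, and polyadenylated RNA was taken 3 days later. The INT group also received 11.6 ng of plasmid with the INT guide under a U6 promoter, and so did the groups with the guides labelled sgRNA, P4P6 and TOP1, each with its own guide. Each of the 5 groups has 2 libraries. The delivery was transient and all cells of a well were sequenced together, so cells that took up plasmid and cells that did not cannot be told apart. A larger share of transfected cells likewise cannot be told apart from more RNA per cell. Nothing in the labels says that paired libraries stem from different cultures, and p-values therefore measure the spread between these libraries, which may be technical. The RNA design of the INT guide is not given in the sources used here, and its sequence is not printed.

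As background, dCas9 is a Cas9 protein that binds the DNA site spelled out by its guide RNA without cutting it, and VP64 is a viral activation domain that recruits the transcription machinery to that site. In CRISPR Display, extra RNA is built into the guide, and a reporter tests whether the enlarged guide still brings the activator to its target. U6 promoters are read by RNA polymerase III, whose transcripts carry no poly(A) tail, and poly(A) selection captures such transcripts poorly.

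The libraries of both groups carried several transcripts typical of the line. Of 25 features on a list of genes typical of HEK293 cells, 19 reached the tested level. In all 10 libraries VIM, an intermediate filament gene, lay between 226 and 284 FPKM, and LIN28B and IGF2BP1, RNA-binding protein genes of embryonic cells, between 21.9 and 26.6 and between 31.0 and 38.2. PAX2, a kidney developmental factor, was near 1 FPKM (0.755 to 1.28). Blood markers stayed at or below 0.952 FPKM and hepatocyte markers at or below 0.245. Fibroblast and endothelial markers were not all absent. COL1A1 was at 0.981 to 1.94 FPKM and COL3A1 at 0.825 to 1.19, levels like that of PAX2. The joint feature FIP1L1,PDGFRA reached 31.5 FPKM, while LUM, DCN and CDH5 stayed at or below 0.303. Read totals are not known. Depth relative to CasVP library 0 was estimated from low values as 0.884 in CasVP library 1, 0.905 in INT library 0 and 0.817 in INT library 1, and lay between 0.694 and 1.02 over all libraries. Across genes, which are not independent replicates, log2(FPKM + 1) correlated at r = 0.998 between the CasVP libraries and at 0.997 between the INT libraries.

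The question of the comparison is what the INT guide changed in the target transcript and in the rest of the transcriptome. The target was at 23.8 and 22.7 FPKM in the CasVP libraries and at 356 and 366 FPKM with INT. The groups were far apart and the libraries of each group lay close together. The mean with INT was 361.25 FPKM (SD 7.33, n = 2), 15.5 times that with the activator alone. On the log2(FPKM + 1) scale Gaussia luciferase rose by 3.90 (SE 0.07, 95% confidence interval 3.74 to 4.06, limma adjusted p = 9.66e-10). With this rise the reporter moved from rank 3937 and 4091 among the 11574 tested features to rank 166 and 157. It thus went from percentile 66.0 and 64.7 to percentile 98.6 in both INT libraries. For this transcript a two-sided exact permutation test of 2 libraries against 2 gave p = 0.333, the smallest that 6 splits allow.

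The activator's own mRNA, dCas9-VP64, was at 14.8 and 14.6 FPKM in CasVP and at 25.6 and 25.9 FPKM with INT. Both INT values were above those of the other 8 libraries, which reached at most 24.0 FPKM in sgRNA library 0. The mean with INT (25.7 FPKM, SD 0.238, n = 2) was 1.75 times that in CasVP. The log2 rise was 0.77 (95% confidence interval 0.61 to 0.92, limma adjusted p = 0.00341), and its rank moved from 5690 and 5728 to 3668 and 3649. The call ended when any library of either group was left out (log2 difference 0.758 to 0.777, adjusted p = 0.0527 to 0.0770), while the size hardly moved. The plasmid dose was the same in both groups, and what part the higher activator transcript had in the reporter level was not tested.

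Cypridina luciferase, the reporter that the guide does not target, was at 1.40 and 1.15 FPKM in CasVP and at 1.45 and 2.03 with INT. The INT libraries were the more spread of the pair of groups. The log2 difference of 0.26 (95% confidence interval 0.00 to 0.52) did not pass (limma adjusted p = 0.560). Per unit of Cypridina transcript, Gaussia stood at 17.1 and 19.7 in CasVP and at 245 and 180 with INT, a ratio of means of 11.6. Per unit of dCas9-VP64 transcript it stood at 1.61 and 1.56 in CasVP and at 13.9 and 14.1 with INT, a ratio of 8.87. The target was therefore several times higher with INT on each of these scales, and the factor was lower per activator transcript than for the plain FPKM.

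The transcript of the INT guide itself was listed at 1.38 FPKM in INT library 0 and at 0 in INT library 1 and in all libraries of the other groups. The transcript listed for the unmodified guide was at 233 FPKM in sgRNA library 0, 0 in sgRNA library 1 and 109 in P4P6 library 0, a group that did not receive it by its label. It was at 0 in the remaining 7 libraries, all of INT and CasVP included. The reporter level of the 2 INT libraries differed little although the guide was seen in only 1 of them.

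**Figure D1:**
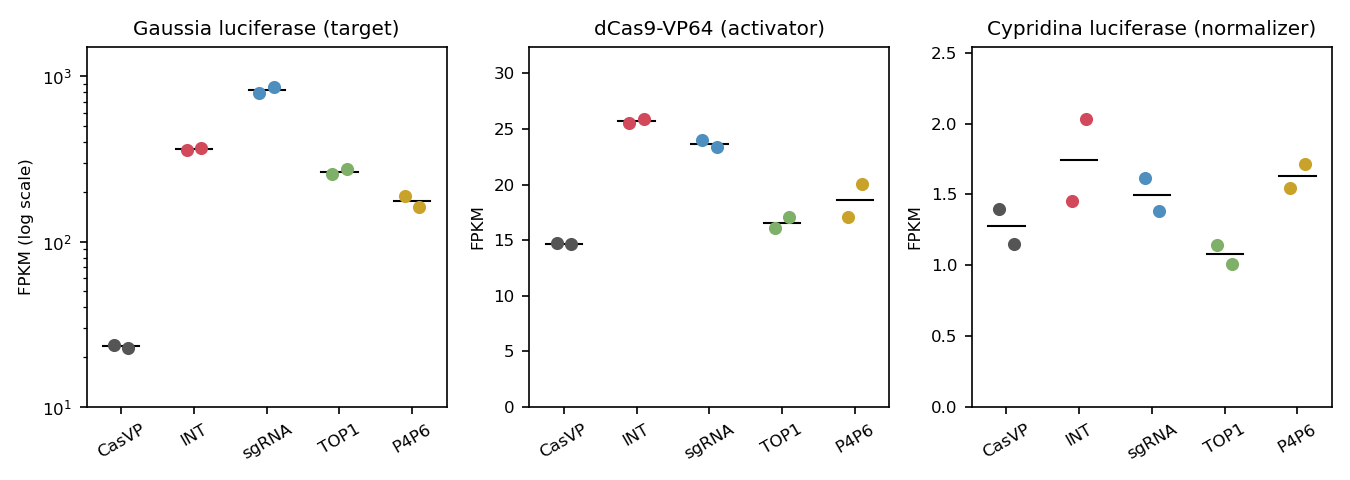
FPKM of the target (log axis), the activator and the normalizer transcripts in each of the 10 libraries, by group; each point is a library and each bar the mean of 2. The INT points stand at 356 and 366 FPKM for Gaussia, between sgRNA and TOP1, and are the highest of all groups for dCas9-VP64.

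The other guides place the INT value. Gaussia stood at 787 and 857 FPKM with sgRNA, at 257 and 273 with TOP1 and at 189 and 163 with P4P6, and no group overlapped another. INT reached 0.439 times the level of sgRNA (log2 difference -1.18, limma adjusted p = 0.000139) and 2.06 times that of P4P6 (1.04, 95% confidence interval 0.88 to 1.20, adjusted p = 0.000487). Against TOP1 the ratio was 1.36, and the log2 difference of 0.45 (95% confidence interval 0.29 to 0.60) did not pass the limma test over all features (adjusted p = 0.275). Against the mean of the other 3 guides it was 0.10 (95% confidence interval -0.03 to 0.23, adjusted p = 0.999), and this contrast turned to -0.37 without the P4P6 libraries (adjusted p = 0.0916).

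The order of INT and TOP1 depended on what the reporter was scaled by. Per Cypridina transcript, Gaussia averaged 213 with INT (SD 45.9, n = 2) and 248 with TOP1 (SD 31.8, n = 2), and the libraries of the groups overlapped. Per dCas9-VP64 transcript it averaged 14.0 with INT (SD 0.155) and 16.0 with TOP1 (SD 0.0407), where the TOP1 libraries were the higher. TOP1 had less of both scaling transcripts, with 16.1 and 17.1 FPKM of dCas9-VP64 and 1.14 and 1.01 FPKM of Cypridina. The guide sgRNA stayed above INT on both scales, with means of 553 and 34.7, and P4P6 below it, with means of 109 and 9.56. The log2 difference of dCas9-VP64 between INT and another guide was 0.11 for sgRNA (limma adjusted p = 0.629), 0.45 for P4P6 (0.383) and 0.60 for TOP1 (0.0615), none of which passed.

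Across the transcriptome, the Gaussia and dCas9-VP64 transcripts were the features that passed, 2 of 11574 or 0.0173%. None of the 11570 endogenous features did, with limma and an adjusted p of at least 0.507 for each. At an unadjusted p under 0.05 there were 1026 features, of which 441 were higher with INT and 585 lower. Differences were small: the SD of the log2 difference between group means was 0.104, the central 98% of estimates lay between -0.24 and 0.26, and 49.5% were above 0. Between single libraries the SD was 0.141 within INT and 0.104 within CasVP, and for the 4 pairs of an INT with a CasVP library it lay between 0.122 and 0.156. For 11401 endogenous features (98.5%) the 95% confidence interval of the fold in FPKM + 1 stayed below 1.5 in both directions. Near the lowest tested level the fold in plain FPKM can be larger than that.

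Both INT libraries lay above both CasVP libraries for 2346 features (20.3%) and below both for 2678 (23.1%). The split moved with the level of expression. Of 2446 endogenous features at 1 to 5 FPKM, 634 lay above and 352 below, whereas of 3778 features at 20 to 100 FPKM, 597 lay above and 1162 below. Among the 758 features of at least 100 FPKM, 96 lay above and 268 below. The spread of the estimates narrowed over the same range, from an SD of 0.133 at 1 to 5 FPKM to 0.0856 at 100 FPKM and more.

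**Figure D2:**
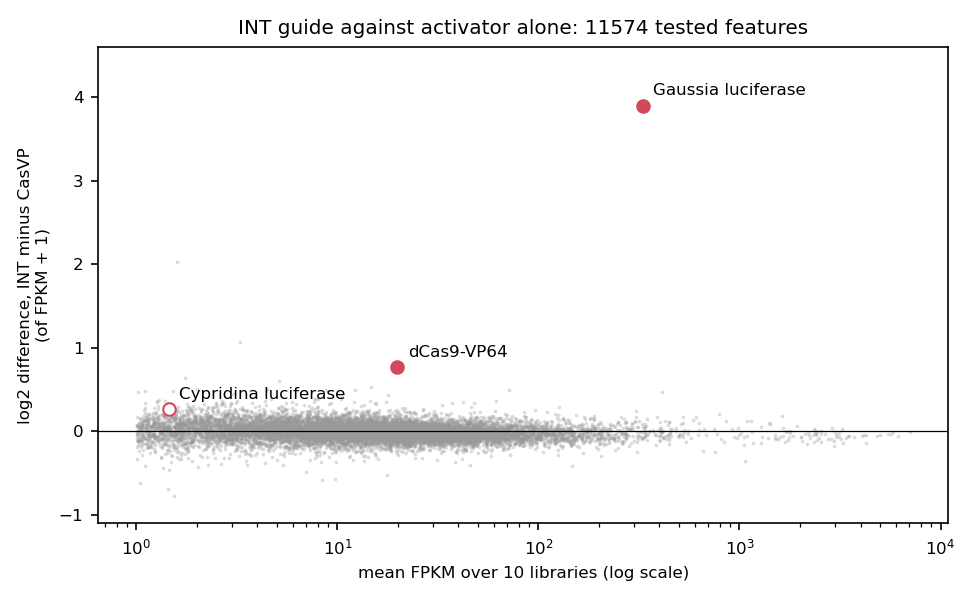
Log2 difference between INT and CasVP (of FPKM + 1) against the mean FPKM over 10 libraries on a log axis; grey points are 11570 endogenous features, filled red points passed and the open point did not. The Gaussia transcript stands at 3.90 and dCas9-VP64 at 0.77, and the grey points narrow around 0 toward higher levels.

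Endogenous features with a log2 difference beyond 0.5 numbered 14, of which 7 were beyond 1.5-fold. AFF1, a transcription elongation factor gene, was at 18.6 and 7.29 FPKM in CasVP and at 7.95 and 7.20 with INT. Of these libraries only CasVP library 0 was high, and the groups overlapped. Both P4P6 libraries were high as well, at 14.1 and 14.9 FPKM, while those of sgRNA and TOP1 lay between 6.42 and 6.90.

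Of the other members of that group, PHLDA3, BTG2, INHBE and IFI27L2, described below, had 9.53 to 23.4 FPKM in CasVP. Several others had low levels. KRTAP21-2, a hair keratin-associated gene, was at 0.415 and 1.39 FPKM in CasVP and at 1.34 and 2.54 with INT, so that the groups overlapped. ADAMTS2, a procollagen-processing protease gene, was at 1.15 and 1.61 against 2.35 and 2.39, and AMH, which encodes anti-Müllerian hormone, at 3.09 and 2.97 against 4.89 and 4.57. PFN4, a profilin gene, was at 1.68 and 1.72 FPKM in CasVP and at 1.04 and 0.514 with INT. For these last 3 genes the groups did not overlap, and the log2 estimates were 0.51, 0.51 and -0.62 (limma adjusted p = 0.507 for each).

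Named next are the genes with a mean of at least 5 FPKM, no overlap between the groups and the largest estimates in each direction. Since the absence of overlap was part of the choice, it is not evidence. None passed, and the limma adjusted p lay between 0.507 and 0.642 for all 20.

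ARRDC3, an arrestin-domain adaptor gene, was at 4.08 and 3.08 FPKM in CasVP and at 7.10 and 4.88 with INT (log2 difference 0.60, SE 0.27). PHLDA3, a p53-induced inhibitor of Akt signalling, was at 11.9 and 10.8 against 18.9 and 15.1 (0.53, SE 0.18). BTG2, an antiproliferative p53 target, was at 10.1 and 9.53 against 16.3 and 12.6 (0.50, SE 0.14). In each of these 3 genes INT library 0 was the highest of the 4 libraries.

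TPM2, a tropomyosin that stabilises actin filaments, was at 7.07 and 6.38 FPKM in CasVP and at 11.2 and 8.64 with INT (0.49, SE 0.10). The joint feature of the actin genes ACTB and ACTG1 was at 367 and 375 against 427 and 618 (0.47, SE 0.12), where INT library 1 was the outlying value. Without INT library 0 the estimate of this joint feature was 0.73, and over leaving out single libraries it ranged down to 0.20. What part the assignment of reads among the near-identical actin genes had in it was not tested. NMU, which encodes the neuropeptide neuromedin U, was at 16.4 and 14.3 against 21.6 and 20.6 (0.44, SE 0.16).

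The remaining genes on the higher side had estimates between 0.38 and 0.41. They were the joint feature GABBR1,UBD (9.49 and 8.06 against 13.4 and 10.6 FPKM), the membrane protein gene TMEM160 (7.58 and 7.36 against 9.50 and 10.7), the mitochondrial lyase gene CLYBL (6.37 and 7.46 against 9.51 and 9.13) and the exonuclease-domain gene EXD3 (6.13 and 5.84 against 8.21 and 8.02). CLYBL and the actin feature were also above all 6 libraries of the other guides. For the actin feature INT library 0 was barely so, at 427 FPKM against 417 and 425 with P4P6. EXD3 was not, since the other guides gave 7.30 to 8.52 FPKM.

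On the lower side INHBE, which encodes the beta E subunit of activins and is a target of the integrated stress response, was at 10.3 and 12.3 FPKM in CasVP and at 6.24 and 8.23 with INT (log2 difference -0.58, SE 0.12). IFI27L2, of the interferon alpha-inducible protein family, was at 17.8 and 23.4 against 12.7 and 15.3 (-0.52, SE 0.13). RECK, a membrane inhibitor of matrix metalloproteinases, was at 8.24 and 9.95 against 7.68 and 4.99 (-0.48, SE 0.25). IFI27L2 was lower in both INT libraries than in any of the other 8 libraries, which INHBE and RECK were not.

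TRIB3, a pseudokinase gene induced by cell stress, was at 56.2 and 50.9 FPKM in CasVP and at 37.0 and 43.8 with INT (-0.40, SE 0.14). MPDU1, needed for the use of dolichol-linked mannose in glycosylation, was at 43.2 and 45.4 against 31.9 and 36.5 (-0.37, SE 0.07). The groups of these genes were separated by more than the distance between the INT libraries for MPDU1 and by a like distance for TRIB3. The other genes on this side had estimates between -0.41 and -0.35 and were KRTAP19-1, C1orf182, the zinc finger gene ZNF576, PTPLA, a dehydratase gene of very long fatty acid synthesis, and ECE2, an endothelin-converting enzyme gene. KRTAP19-1, a hair keratin-associated gene, was the most abundant of them, at 172 and 163 FPKM in CasVP and 117 and 135 with INT.

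**Figure D3:**
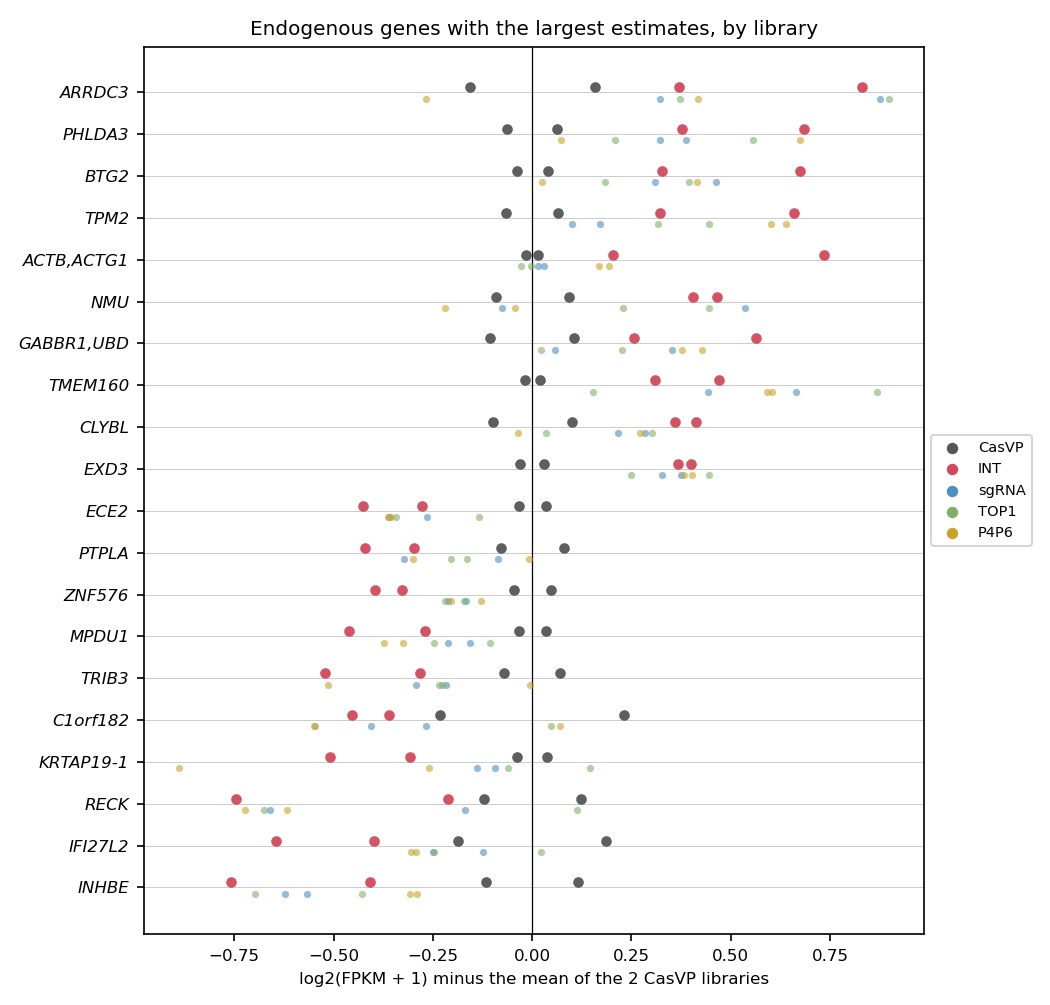
Log2(FPKM + 1) of 20 endogenous features in each library, minus the mean of the 2 CasVP libraries; large points are CasVP and INT libraries, small points the libraries of the other guides. The genes shown were chosen for the absence of overlap between INT and CasVP, and for most of them the small points lie on the same side of 0 as INT.

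The 5 endogenous genes with the smallest p had smaller estimates and replicates that lay close together. ZNF576 was at 9.84 and 9.17 FPKM in CasVP and at 6.98 and 7.37 with INT (log2 difference -0.36, 95% confidence interval -0.50 to -0.22). ZNF32, another zinc finger gene, was at 25.8 and 27.5 against 21.4 and 20.9 (-0.32, interval -0.44 to -0.19). SYP, which encodes the synaptic vesicle protein synaptophysin, was at 17.3 and 17.8 against 13.9 and 14.4 (-0.29, interval -0.42 to -0.17). All 3 were lower with INT than in any other library of the series.

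ZNF138, a zinc finger gene, was at 7.69 and 7.95 FPKM in CasVP and at 9.66 and 10.7 with INT (0.34, interval 0.20 to 0.47), and EXD3 completes the group. The limma adjusted p was 0.507 for each of the 5. Comparisons of the other guides with CasVP share the CasVP libraries, so a like side for every guide is no separate evidence.

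The pathways are described by counts and medians beside those of all 11570 endogenous features, for which 49.5% of estimates were above 0 and the median was 0.00. No member of any list passed. The lists were chosen with earlier results of these data known, and their counts are a description.

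The transcription factor p53 responds to DNA damage and other stress and switches on genes that arrest the cell cycle, repair DNA or start apoptosis. HEK293FT cells carry adenoviral E1 genes and SV40 large T antigen, and proteins of both viruses are known to bind p53. Of 29 tested p53 targets, 23 had estimates above 0, with a median of 0.18 and a range of -0.18 to 0.53. Both INT libraries were above both CasVP libraries for 19 of them (65.5%, against 20.3% of all features) and below for 2 (6.9%, against 23.1%).

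Among the arrest genes, CDKN1A, which encodes the kinase inhibitor p21, was at 33.5 and 29.6 FPKM in CasVP and at 43.6 and 37.0 with INT (0.34, limma adjusted p = 0.507). GADD45A, a growth arrest gene, was at 42.1 and 38.3 against 52.3 and 49.9 (0.34, adjusted p = 0.507), and the polo-like kinase gene PLK3 at 2.72 and 2.13 against 4.31 and 3.11 (0.45, adjusted p = 0.555). MDM2, the ubiquitin ligase that degrades p53, was at 55.8 and 52.6 against 66.7 and 62.0 FPKM (0.24, adjusted p = 0.627). FDXR, a mitochondrial reductase gene, was at 13.4 and 11.8 against 17.0 and 15.1 (0.33, adjusted p = 0.687). Both INT libraries lay above both CasVP libraries for each gene of this paragraph, as for 20.3% of all features.

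Other members with estimates of at least 0.20 were the sestrin gene SESN1 (0.24), the DNA repair genes XPC (0.22) and DDB2 (0.20) and the growth factor gene GDF15 (0.33). Of the members known for apoptosis, BAX stood at -0.03, BBC3 at -0.06, TP53I3 at -0.18 and the joint feature FAS,STAMBPL1 at 0.02. These 4 were picked out after their values were seen. The mean deviation of the list from each gene's mean over all libraries was -0.0794 in CasVP library 0 and -0.154 in CasVP library 1, and 0.131 and -0.0185 in INT libraries 0 and 1. Library 0 was thus higher than library 1 in both groups, and INT was higher than CasVP at either index. The other guides had the same order of indexes. For libraries 0 and 1 the values were 0.135 and 0.0218 with sgRNA, 0.128 and -0.0310 with TOP1, and 0.0792 and -0.212 with P4P6. The median of the list was 0.11 without INT library 0 and 0.23 without INT library 1.

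The median of the p53 targets against the same CasVP libraries was 0.17 with sgRNA, 0.15 with TOP1 and 0.05 with P4P6. These values share their controls with the INT value. Against the other guides, which do not, the INT median was 0.04.

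In the integrated stress response, kinases that sense amino acid shortage, misfolded protein or double-stranded RNA slow translation, and the factor ATF4 then induces genes of amino acid supply and stress. Of 22 tested members 8 lay above 0 and 14 below (median -0.01). Both INT libraries were above CasVP for 5 members (22.7%, against 20.3% of all features) and below for 7 (31.8%, against 23.1%). ATF4 itself was at 768 and 773 FPKM in CasVP and at 793 and 716 with INT, and the groups overlapped (-0.03, limma adjusted p = 0.901).

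The lower end of this list held several ATF4 targets. Besides INHBE and TRIB3, DDIT3, which encodes the stress factor CHOP, was at 77.6 and 80.8 FPKM in CasVP and at 62.9 and 67.7 with INT (-0.28, interval -0.41 to -0.14, limma adjusted p = 0.507). ASNS, the asparagine synthetase gene, was at 409 and 398 against 369 and 352 (-0.16, adjusted p = 0.604). At the upper end stood the cystine transporter gene SLC7A11 (0.19), the lipoprotein receptor gene VLDLR (0.17) and SESN2 (0.15). The targets of this response were therefore spread to both sides, and the median was 0.03 without INT library 1.

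The unfolded protein response raises chaperones of the endoplasmic reticulum. Of its 19 members 6 lay above 0 and 13 below (median -0.04), with 8 below CasVP without overlap (42.1%, against 23.1% of all features) and 3 above (15.8%, against 20.3%). The median was -0.01 without CasVP library 0. The chaperone gene HSPA5 was at 123 and 122 FPKM in CasVP and at 117 and 116 with INT (-0.07, limma adjusted p = 0.668), and the cochaperone gene DNAJB9 at 12.9 and 13 against 10.9 and 11.5 (-0.20, adjusted p = 0.507). Of 18 heat shock genes 10 lay above 0 (median 0.05, and 0.00 without INT library 0), with HSPD1, a mitochondrial chaperonin gene, at 0.12 and HSPA1B, an inducible HSP70 gene, at 0.12.

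Activins, BMPs and TGF-beta signal through receptor kinases to SMAD factors, whose best known targets include the ID genes and the inhibitory SMADs. Of 22 tested members of this pathway 10 lay above 0 and 12 below, with a median of -0.08. Both INT libraries were below both CasVP libraries for 11 (against 23.1% of all features) and above for 1 (4.55%, against 20.3%).

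By role, the members on the lower side without overlap included the ligand genes INHBE and BMP4 (-0.15) and the receptor gene BMPR1A (-0.13). Among the targets, ID2, an inhibitor of basic helix-loop-helix factors, was at 223 and 224 FPKM in CasVP and at 175 and 191 with INT (-0.29, interval -0.43 to -0.15, limma adjusted p = 0.507). ID3, of the same family, was at 45.2 and 46.6 against 33.8 and 39.2 (-0.33, adjusted p = 0.507), and ID1 and ID4 both stood at -0.16. The inhibitor genes SMAD7 and TGIF1 stood at -0.26 and -0.22, while SMAD6 stood at 0.00. All 4 ID genes were lower in both INT libraries than in both CasVP libraries. The same held for 23.1% of all features. By level it held for 1162 of 3778 endogenous features at 20 to 100 FPKM and for 268 of 758 from 100 FPKM on.

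BMP2 (0.18), the corepressor gene SKI (0.11) and the receptor genes ACVR1B (0.07) and BMPR2 (0.04) were on the other side. Per library the mean deviation of the pathway was 0.0265 and 0.0449 in CasVP and -0.0741 and -0.0366 with INT. Its median against CasVP was -0.02 with sgRNA and -0.04 with both P4P6 and TOP1, again with the same controls, and INT against the other guides gave -0.03. Against CasVP the INT median was -0.03 without CasVP library 1 and -0.05 without INT library 0.

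Replication-dependent histone genes, whose mRNAs mostly end without a poly(A) tail, had 5 of 21 tested members above 0 and 16 below (median -0.14). Both INT libraries were below CasVP for 10 (47.6%, against 23.1% of all features) and above for 0 (against 20.3%). Against the same CasVP libraries the median was -0.14 with sgRNA, -0.13 with P4P6 and -0.03 with TOP1. HIST1H2AM, an H2A gene, was at 1.94 and 2.52 FPKM in CasVP and at 0.782 and 0.998 with INT (-0.77, limma adjusted p = 0.507), and HIST1H4E, an H4 gene, at 2.55 and 1.43 against 0.869 and 0.781 (-0.69, adjusted p = 0.507). INT library 0 carried more of this than INT library 1, with mean deviations of -0.205 and -0.0187 against 0.0542 and 0.128 in CasVP. The median was -0.09 without CasVP library 0 and -0.26 without INT library 1. What part the efficiency of poly(A) selection had in these values was not tested. Replication genes (34 members, median -0.02) and mitosis genes (29 members, median -0.02) had 13 and 9 members above 0.

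Actin cytoskeleton genes had 26 of 36 members above 0 (median 0.05), with 16 above CasVP without overlap (44.4%, against 20.3% of all features) and 3 below (8.33%, against 23.1%). Against the same CasVP libraries the median was 0.05 with sgRNA, 0.01 with P4P6 and 0.05 with TOP1. Besides TPM2 and the joint actin feature, ACTG1 on its own was at 579 and 567 FPKM in CasVP and at 686 and 608 with INT (0.17, limma adjusted p = 0.507). The tropomyosin gene TPM4 stood at 0.18, the thymosin gene TMSB10 at 0.17, the filamin gene FLNA at 0.16 and the myosin gene MYH9 at 0.13. MYL6, a myosin light chain gene, was at the other end with -0.11. The median was 0.03 without INT library 0 and 0.10 without INT library 1.

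Glycolysis and hypoxia genes had 21 of 28 members above 0 (median 0.07), with 14 above CasVP without overlap (against 20.3% of all features) and 4 below (14.3%, against 23.1%). The median against the same CasVP libraries was 0.06 with sgRNA, 0.05 with P4P6 and 0.04 with TOP1. LDHA, the lactate dehydrogenase A gene, was at 272 in both CasVP libraries and at 352 and 295 FPKM with INT (0.24, limma adjusted p = 0.555). BNIP3, a hypoxia-induced mitophagy gene, stood at 0.20 and PGK1, a glycolytic kinase gene, at 0.15, while GAPDH (-0.04), ENO1 (-0.07) and VEGFA (-0.08) stood below 0. Without INT library 0 the median was 0.04.

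Genes of the nuclear-encoded respiratory chain had 26 of 75 members above 0 (median -0.04). Without overlap, 30 lay below CasVP (40.0%, against 23.1% of all features) and 6 above (against 20.3%). Among all endogenous features the counts below were 1162 of 3778 at 20 to 100 FPKM and 268 of 758 from 100 FPKM on. Against the same CasVP libraries the median of the list was 0.07 with sgRNA, 0.07 with TOP1 and -0.14 with P4P6. NDUFA2, a complex I subunit gene, was at 108 and 115 FPKM in CasVP and at 94.7 and 92.4 with INT (-0.25, interval -0.36 to -0.14, limma adjusted p = 0.507). COX6A1, of cytochrome c oxidase, was at 720 and 723 against 600 and 630 (-0.23, adjusted p = 0.507). COX5A, another subunit of the same complex, was at 141 and 140 against 172 and 151 (0.19, adjusted p = 0.507), so that subunits of 1 complex lay on both sides. The median was -0.03 without CasVP library 1, -0.07 without INT library 0 and -0.01 without INT library 1.

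Ribosomal protein genes had 14 of 80 features above 0 (median -0.05), with 25 below CasVP without overlap (31.2%, against 23.1% of all features and 268 of 758 from 100 FPKM on) and 3 above (3.75%, against 20.3%). RPLP2, of the large subunit stalk, was at 1367 and 1472 FPKM in CasVP and at 1553 and 1689 with INT (0.19, limma adjusted p = 0.655). RPS20, of the small subunit, was at 1009 and 1541 against 1022 and 933 (-0.35, adjusted p = 0.560), where CasVP library 1 stood apart and the groups overlapped. For the whole list INT library 1 stood lowest, with a mean deviation of -0.0920 against 0.00779 in INT library 0 and 0.0181 and -0.00230 in CasVP. The median was 0.00 without INT library 1 and -0.11 without INT library 0. The medians against CasVP were 0.09 with sgRNA, 0.10 with TOP1 and -0.20 with P4P6.

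**Figure D4:**
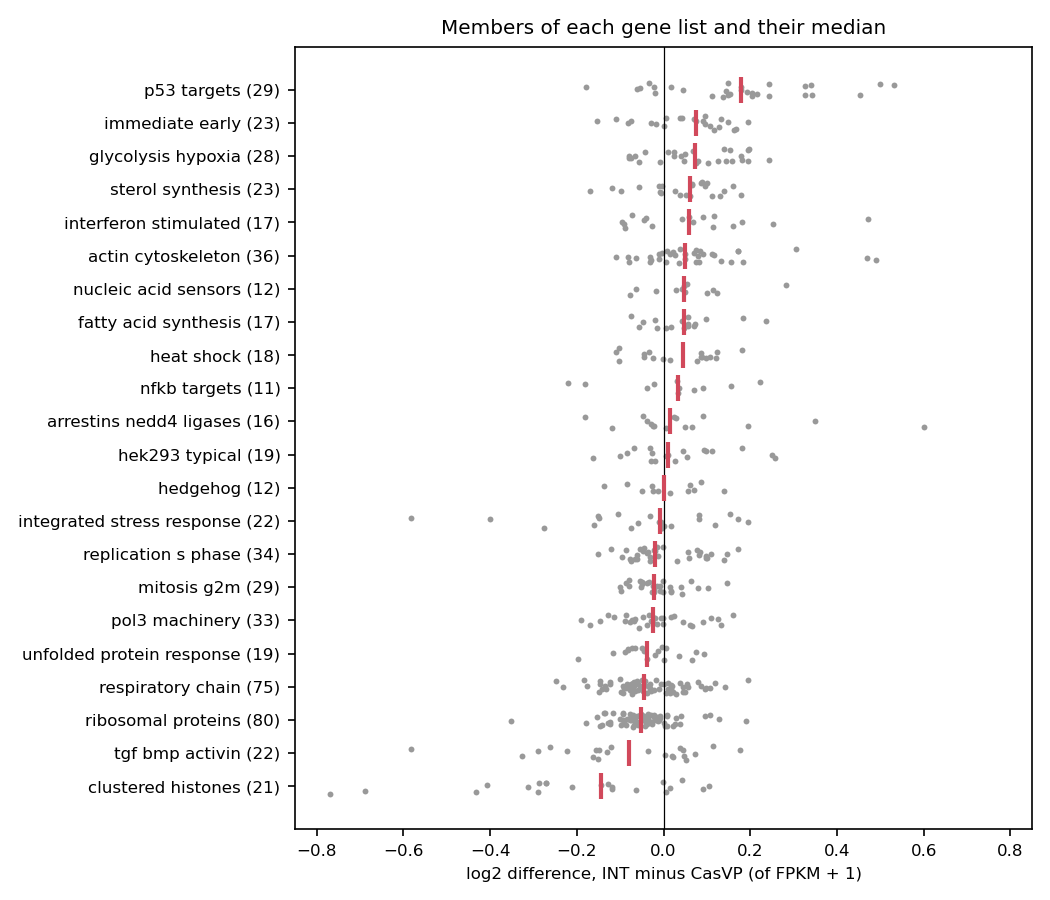
Log2 difference between INT and CasVP (of FPKM + 1) for each tested member of 22 gene lists (number of members in parentheses); grey points are members and red bars list medians. The p53 targets have the highest median (0.18) and the histone genes the lowest (-0.14), and nearly all members lie within 0.5 of 0.

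Double-stranded RNA and foreign DNA can switch on interferon genes, and the cells here received plasmid DNA in every group. Of 17 tested interferon-stimulated genes 10 lay above 0 (median 0.06), with 4 above CasVP without overlap (23.5%, against 20.3% of all features) and 2 below (11.8%, against 23.1%). The median turned to -0.04 without CasVP library 0 and to -0.03 without INT library 1. ISG15, a ubiquitin-like modifier gene, was at 6.61 and 8.48 FPKM in CasVP and at 7.20 and 10.3 with INT, with overlap (0.18, limma adjusted p = 0.740). IFIT1, an RNA-binding antiviral gene, was at 1.66 and 1.68 against 1.15 and 2.51 (0.04, adjusted p = 0.970). BST2, which encodes tetherin, was at 0.742 and 0.837 against 1.73 and 1.26 (0.47, adjusted p = 0.507) and above all other libraries.

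Sensors of nucleic acids had 9 of 12 members above 0 (median 0.05), with 6 above CasVP without overlap (against 20.3% of all features) and 1 below (8.33%, against 23.1%). TMEM173, which encodes STING, was at 0.869 and 0.702 FPKM in CasVP and at 1.28 and 1.06 with INT (0.28, limma adjusted p = 0.547), and DDX58, the RIG-I gene, at 1.85 and 1.70 against 2.00 in both INT libraries (0.11, adjusted p = 0.744). Of 11 NF-kappaB targets 7 lay above 0 (median 0.03), with NFKB2, a subunit gene, at 0.22 and the inhibitor gene NFKBIA at -0.18. Immediate early genes had 17 of 23 members above 0 (median 0.08), led by the transcription factor genes EGR1 (0.20) and JUN (0.17).

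Sterol synthesis had 15 of 23 members above 0 (median 0.06). Without overlap, 8 lay above CasVP (34.8%, against 20.3% of all features) and 3 below (against 23.1%), with the regulator gene INSIG1 at 43.4 and 44.9 FPKM in CasVP and 50.3 and 48.6 with INT (0.16, limma adjusted p = 0.507). Fatty acid synthesis had 12 of 17 above 0 (median 0.05), with the acetyl-CoA carboxylase gene ACACB at 0.24. Without overlap, 5 lay above CasVP (29.4%, against 20.3% of all features) and 2 below (11.8%, against 23.1%). Its median against the same CasVP libraries was -0.01 with sgRNA, 0.07 with P4P6 and -0.03 with TOP1. Hedgehog genes had 6 of 12 (median 0.00), with the receptor gene PTCH1 at 6.06 and 5.68 FPKM in CasVP and 5.01 and 5.49 with INT (-0.14, adjusted p = 0.711).

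The arrestin and NEDD4-family ligase list had 9 of 16 members above 0 (median 0.01). The alpha-arrestin genes stood at its upper end, with ARRDC4 at 37.2 and 34.7 FPKM in CasVP and 50.2 and 42.1 with INT (0.35, limma adjusted p = 0.592) and TXNIP at 63.1 and 62.7 against 75.6 and 68.9 (0.19, adjusted p = 0.507), while the ligase gene NEDD4 stood at -0.18.

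The guides were made by RNA polymerase III from U6 promoters, so genes of that machinery were read as well. Of 33 members 10 lay above 0 (median -0.02), with 13 below CasVP without overlap (39.4%, against 23.1% of all features and 1162 of 3778 at 20 to 100 FPKM) and 4 above (12.1%, against 20.3%). POLR3K, a polymerase III subunit gene, was at 98.7 and 93.1 FPKM in CasVP and at 85.1 and 82.7 with INT (-0.19, interval -0.30 to -0.09, limma adjusted p = 0.507). ZNF143, an activator of small nuclear RNA genes, stood at -0.17 and SNAPC2, a subunit of the complex that binds the U6 promoter, at 0.16. Genes typical of HEK293 cells had 11 of 19 members above 0 (median 0.01), with the neurofilament genes NEFL and NEFM at 0.26 and 0.25 and the related INA at -0.16.

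INT was also set against the other guides, a contrast that does not use the CasVP libraries. With limma 0 of 11574 features passed against the mean of sgRNA, P4P6 and TOP1 (0%), and 375 had an unadjusted p under 0.05 (168 higher, 207 lower). Against sgRNA alone 1 feature passed (0.00864%), against P4P6 likewise 1 (0.00864%), both the Gaussia transcript, and against TOP1 0 (0%), with 1641 at an unadjusted p under 0.05. Both INT libraries lay above all 8 other libraries for 115 features (0.994%) and below all 8 for 107 (0.924%).

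NEDD4L, a ubiquitin ligase gene, had the same level with INT as with the activator alone and a higher and scattered level with the other guides. It was at 4.64 and 4.75 FPKM in CasVP, 4.55 and 4.66 with INT, 14.2 and 9.11 with sgRNA, 10.1 and 7.02 with P4P6 and 14.1 and 5.16 with TOP1. Both INT values were below all 6 values of the other guides. The log2 difference from the other guides was -0.89 (95% confidence interval -1.50 to -0.28), and it did not pass (limma adjusted p = 0.999). The interval of INT against CasVP was -0.77 to 0.73, since the spread of the other groups enters the common estimate.

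Among the genes with a mean of at least 5 FPKM and INT libraries on the upper side of all 8 others, the largest estimates against the other guides belonged to the joint actin feature, WRN, FKBP9, MEIS3 and POLK. The actin feature was at 427 and 618 FPKM with INT and between 364 and 425 elsewhere. INT library 0 was thus barely above P4P6 library 1. The actin estimate of 0.41 ranged from 0.14 to 0.67 over leaving out single libraries. WRN, the helicase gene of Werner syndrome, was at 14.2 and 16.6 FPKM with INT and between 10.1 and 13.8 elsewhere. FKBP9, a prolyl isomerase gene of the endoplasmic reticulum, was at 11 and 10.2 with INT and between 7.19 and 9.85 elsewhere. POLK, a translesion DNA polymerase gene, was at 7.95 and 9.54 with INT and between 7.10 and 7.53 elsewhere. MEIS3, a homeobox gene, was at 9.12 and 7.56 with INT, and its lower value was next to the 7.55 of CasVP library 0.

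With the same limit of 5 FPKM, those with the most negative estimates on the lower side of all 8 others were IFI27L2, COX5B, C11orf30, C15orf40 and ZNF32. COX5B, a cytochrome c oxidase subunit gene, was at 205 and 210 FPKM with INT, 217 and 227 in CasVP and between 218 and 301 with the other guides. ZNF32 was at 21.4 and 20.9 with INT and between 22.9 and 27.5 elsewhere. C11orf30, which encodes a BRCA2-binding protein, was at 12.2 and 10.9 with INT and between 12.5 and 15 elsewhere. None of these 10 features passed against the other guides, where each had a limma adjusted p of 0.999, and their place outside the range of the others was part of the choice.

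**Figure D5:**
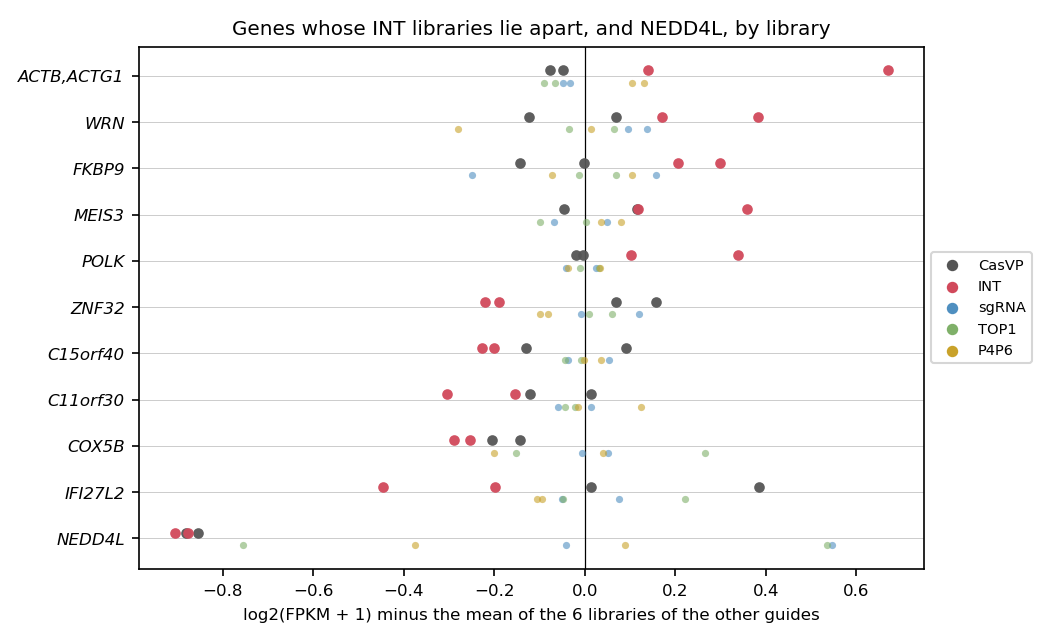
Log2(FPKM + 1) in each library minus the mean of the 6 libraries of the other guides, for the features whose INT libraries lie outside the range of the other 8 and for NEDD4L. The INT points of the chosen features lie within 0.5 of 0 except for INT library 1 in the actin feature, and the NEDD4L points of INT and CasVP coincide near -0.9.

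The INT libraries also differed from each other at single genes, of which 1 is given here. MIF, a cytokine gene, was at 45.0 and 85 with INT and at 36 and 52.7 in CasVP. Its log2 difference of 0.50 between INT and CasVP had a 95% confidence interval of -0.56 to 1.55. For such a gene a change by the guide was not detectable with 2 libraries a group.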

How the data were processed

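Polyadenylated RNA of 10 libraries in 5 groups was sequenced, and the authors deposited 1 table of FPKM values. Per the submitters' processing notes, the tools were TopHat2 2.0.13 and Cuffdiff 2.2.1 and the build hg19. Which step each tool did, which annotation served and how libraries were scaled is not given in the sources used here. Groups were taken from the sample labels. Columns of values show the group with an index, 0 or 1, whose relation to the replicate numbers of the labels is not stated, so libraries are named by group and index. The 945 features without a name were left out, and 509 of the tested features name several genes.

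The deposited FPKM were log2-transformed after adding 1, which understates the fold of low genes, and a mean of 1 FPKM or more was required for testing. Tests were run with limma 3.58.1 (R 4.3.3), using an intensity trend and a mean per group over all 10 libraries (5 residual degrees of freedom). Two-sided p-values were adjusted by Benjamini-Hochberg over 11574 features, with a threshold of 0.05. The script was tested on simulated data. Read counts and totals are not known, so no count test was run. Relative depth was read from features averaging 0.05 FPKM or less, as the most frequent ratio of their values between libraries. Between 23.6 and 29.6% of such ratios lay within 0.05 of it.

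The text names the construct transcripts, 10 features each way with the largest estimates (mean of at least 5 FPKM, no overlap), the 5 with the smallest p, 5 each way outside the range of the other libraries, and the 3 largest estimates of each list with a few well-known members. Features beyond 0.5 on the log2 scale, other list members and genes that differed between the INT libraries were named after their values were seen. The members and the 25 lists were chosen with earlier results of these data known; 23 lists had tested members. Some genes are not reported here. Lists are given as counts and medians without a test. Alternatives were another pseudocount, filter, scaling or variance model, a replicate block, fewer groups and leaving out each library.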

Additional observations from a re-analysis of the deposited data

Results flagged for a closer look

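The Gaussia transcript differed between guides given with the same activator. It was lower with INT than with sgRNA by a log2 difference of -1.18 (limma adjusted p = 0.000139) and higher than with P4P6 by 1.04 (adjusted p = 0.000487). In both cases the 2 libraries of each group lay on separate sides.

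A signal of the guide itself appeared among the features below the tested level. The INT guide transcript was listed at 1.38 FPKM in INT library 0, against 0 in both CasVP libraries and in INT library 1.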

How the results depend on the processing

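Gaussia luciferase kept its rise over CasVP under every alternative. Among 104 results on named genes, 2044 of 2054 values over 20 settings kept their direction and side of the threshold. This count was largely fixed in advance and is no evidence of stability. None of these genes had passed, and many were chosen for the absence of overlap. Leaving out libraries outside a comparison also leaves its estimate unchanged. The dCas9-VP64 rise of 0.77 over CasVP lost its call without a filter (adjusted p = 0.119) and over leaving out libraries ranged from 0.758 to 0.777. With a replicate block 2 features passed, as without it, dCas9-VP64 with adjusted p = 0.00372. The index differences of INT and CasVP correlated at 0.224, and those of all pairs of groups at -0.0363 to 0.305. Only the pair of INT and TOP1 was below 0. What the index stands for is not stated, so what the block removes is not known. Chosen after seeing the data were the leave-outs of other guides' libraries for INT against CasVP, those of any library but INT for INT against the other guides, and every alternative for INT against sgRNA, P4P6 or TOP1 alone.

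Counts of features that passed without a filter were 5 against CasVP, 2 against the other guides, 11 against P4P6 and 8 against TOP1. Those against CasVP were Gaussia, RTN4 (-0.168), TTLL8 (0.0224), BANK1 (-0.0166) and MRC1 (0.0105), so the endogenous differences were small. The Gaussia difference from sgRNA (-1.18) then missed the threshold (adjusted p = 0.0601). Leaving out single libraries gave counts of 1 to 2 against CasVP, 0 to 2 against the other guides, 1 to 2 against sgRNA, 1 to 4 against P4P6 and 0 to 1 against TOP1. Against TOP1 the count was 1 with a filter at 5 FPKM, with library weights and without the P4P6 libraries, where dCas9-VP64 passed at 0.60 (adjusted p = 0.0473, 0.0196 and 0.00470). Leave-outs gave 0.561 to 0.648 for it, and 0.343 to 0.560 against P4P6. Without CasVP library 1, AFF1 passed at -1.19 (adjusted p = 0.000870). The Gaussia difference from the other guides turned to -0.368 without the P4P6 libraries.

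Leaving out single libraries turned ISG15 (-0.0514 to 0.414), IFIT1 (-0.310 to 0.394), KRT8 (-0.0194 to 0.382), ATF4 (-0.106 to 0.0414), FIP1L1,PDGFRA (-0.0308 to 0.0513) and CENPE (-0.0888 to 0.382). ATF4 was at 0.0164 under quantile normalization. Medians over the same leave-outs were -0.258 to -0.0899 for histones, -0.0992 to -0.0335 for the TGF-beta family, -0.113 to 3.27e-05 for ribosomal proteins, -0.0710 to -0.0106 for the respiratory chain, 0.0259 to 0.103 for actin genes, -0.0398 to 0.0273 for the integrated stress response, -0.0430 to -0.0131 for the unfolded protein response and -0.00150 to 0.0468 for heat shock. They were -0.0380 to 0.0516 for interferon-stimulated genes, 0.0312 to 0.0740 for sensors, -0.00986 to 0.0790 for NF-kappaB targets, 0.0411 to 0.0639 for immediate early genes, 0.0197 to 0.0407 for fatty acid synthesis, -0.0466 to 0.0216 for replication, 0.0185 to 0.0590 for hedgehog genes, -0.0113 to 0.0300 for arrestins and -0.0161 to 0.0219 for HEK293 genes. Quantile normalization gave 0.0474 for immediate early, -0.00248 for mitosis, -0.0183 for hedgehog and -0.00991 for polymerase III genes, and a pseudocount of 0.1 gave 0.0987 for immediate early genes. The cause was not tested in any of these.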
